A study of Mus musculus with 24 samples.

Results

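The spleen of B10.BR mice was compared 24 hours after total body irradiation with 500 cGy and without irradiation (0 cGy). B10.BR is an inbred strain with the C57BL/10 background and the H2k haplotype of the major histocompatibility complex. The arrays compared are 6 of the series' 24 one-colour Agilent mouse arrays, 3 for each group, chosen by the strain and dose in their labels. Each array carried RNA from the spleens of 3 mice, pooled, so that the spread between replicates is the spread between pools. The mice were irradiated with an XRAD320 machine, the unirradiated mice were resting animals, and RNA was taken from whole homogenised splenocytes. The labels of these arrays name no other genotype or treatment and give neither the age nor the sex of the mice. B10.BR groups at 300 and 900 cGy, also 3 arrays each, served as neighbouring doses. The statistical fit also took in the series' arrays of a second strain, BALB.K, at 0, 300, 400 and 800 cGy.

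Ionising radiation breaks DNA on both strands, and the breaks activate the kinases ATM and ATR and, through them, the transcription factor p53, which stops the cell cycle through Cdkn1a and starts apoptosis through Bbc3 and Bax. Resting lymphocytes and dividing blood cell precursors are among the most radiosensitive cells of the body, whereas macrophages, stromal cells and plasma cells survive far better. The mouse spleen holds B and T cells in its white pulp, macrophages that recycle iron from old red cells in its red pulp and, unlike the human spleen, active production of red cells and platelets throughout life.

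Levels are given as log2 intensity relative to the 75th percentile of the same array, which is 0 on this scale, and a level of one gene is not set against that of another. The words rose and fell are kept for genes whose difference between the groups had an adjusted p below 0.05 in limma. The value after ± is the standard error of the fitted log2 change with 3 arrays in each group. The spread behind both was estimated over all 24 arrays of both strains. Of the probes 68.3% to 73.5% were well above background on the 6 arrays. Ms4a1 of B cells, Cd3e of T cells and Cd5l and Marco of splenic macrophages were well above background on all 6, as the tissue label calls for. One array stands apart: the 24 measured genes of the exocrine pancreas, which lies against the spleen, held 0.237% of the summed signal on replicate 3 at 500 cGy, against 0.00206% and 0.0104% on replicates 1 and 2 and 0.00152% to 0.00451% on the unirradiated arrays. That array was also the only one of the 6 on another slide. In bulk RNA, fewer cells of a type and less RNA per cell cannot be told apart. For a rise, a larger share of such cells in the tissue and more RNA per cell cannot be told apart either.

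At 500 cGy, 14313 of 29532 measured genes and transcripts differed from the unirradiated spleen (48.5%), of which 6615 were higher (22.4% of all measured) and 7698 lower (26.1%). At least 2-fold differences were found for 3006 higher (10.2%) and 1957 lower (6.63%), and at least 4-fold differences for 291 and 357. Without replicate 3 at 500 cGy 13533 were called, and between the arrays that shared a slide 13977. The split between rises and falls depends on the scaling. With arrays scaled on the spike-in RNAs, which are added in equal amounts, the median of all genes moved up by 0.32, and 7590 of 9647 calls were higher (78.7%, against 46.2%). The size of a change of a dim gene also depends on the background correction: with normexp, which adds an offset before the logarithm is taken, such changes were smaller, and its value is given where it differs by more than 1.5-fold. The arrays of the groups did not overlap for 17377 features (58.8%), so that a lack of overlap in a single gene is common here. The plot of the members of each gene list shows where the large changes lay.

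**Figure D1:**
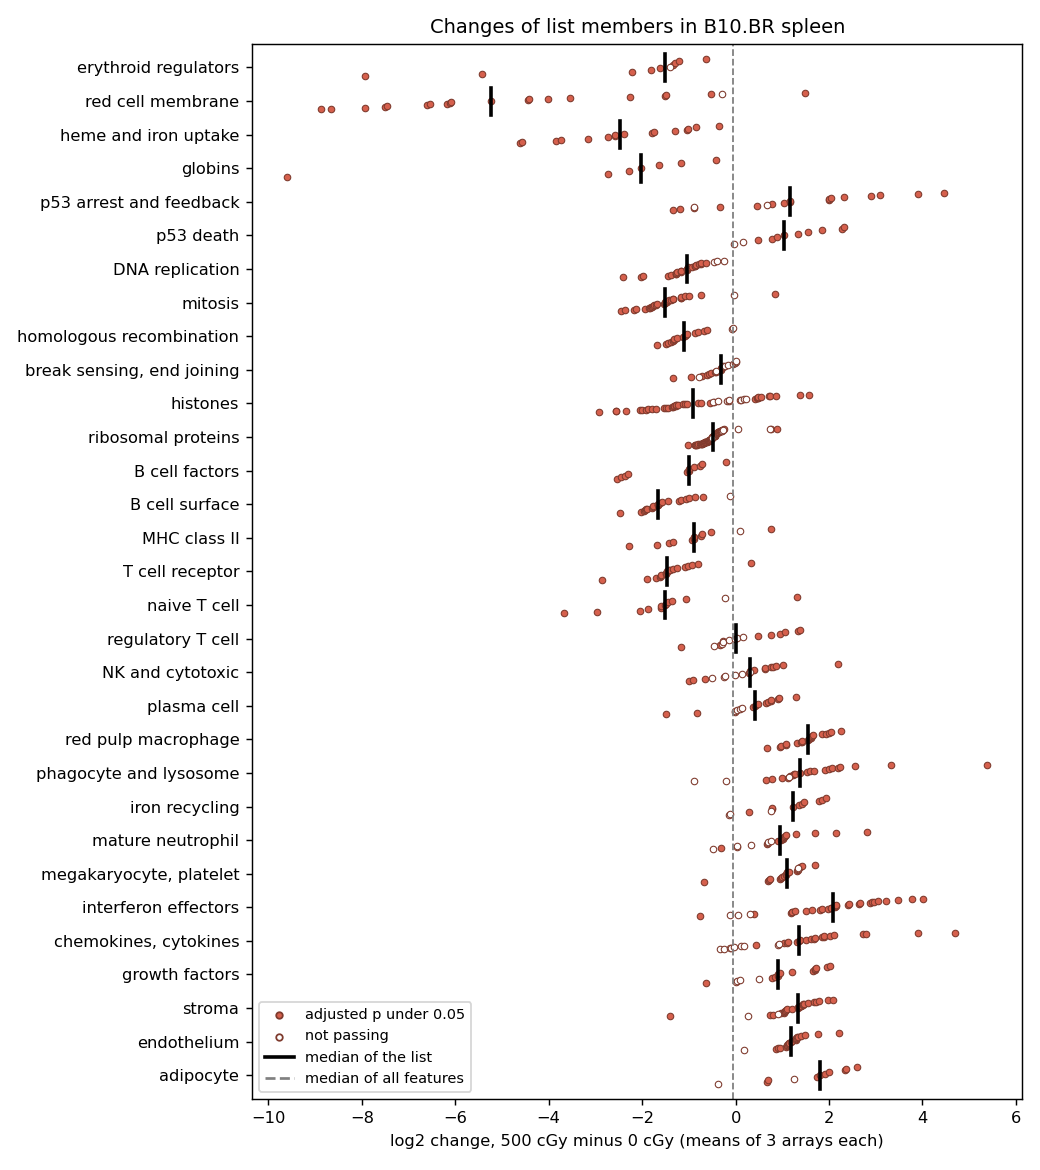
Log2 change at 500 against 0 cGy (horizontal axis, log2 units) for each measured member of 31 gene lists (rows), with filled points for an adjusted p below 0.05, open points for members that did not pass, black bars for list medians and a dashed line at the median of all features, -0.06. The red cell membrane genes have the lowest median, -5.23, and the lowest single value, -9.6, lies in the globin row. The median of the interferon effectors lies at 2.08.

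Genes of red cell production fell. Of 10 measured erythroid regulators 9 fell and none rose (median change -1.51), and of 21 red cell membrane genes 19 fell and 1 rose (-5.23). All 16 genes of heme synthesis and iron uptake fell (-2.48), and so did all 7 genes of the globin list, which includes their chaperone (-2.03). Over all features the median change was -0.06 and 26.1% fell. With spike-in scaling 8, 18, 15 and 5 of these members fell. Of the red cell membrane genes 15 were above background on all 3 arrays at 500 cGy, and their list's median was -3.62 with normexp and -4.02 over genes above background on all 24 arrays.

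Some of the promoters of these genes are shown because GATA1, the master regulator of the erythroid lineage, reads a short motif that recurs in them. The motif was searched as AGATAA or TGATAA on both strands in the RefSeq windows of assembly GRCm38.p6, which run from 250 bases before to 50 after each transcription start. At least 1 match was found in 21% of the 27025 genes with a window, in 5 of the 8 erythroid regulators with a window, in 8 of 15 red cell membrane genes and in 5 of 13 heme genes. Outside the erythroid lists it was found in 7 of 23 interferon effectors, 2 of 27 mitotic genes and 2 of 24 replication genes. The motif was chosen with the changes known, and a match is a run of letters, not a measured binding site. Capitals mark the matches in the stretches upstream of 4 genes.
Klf1, chr8:84901882-84901927, + strand: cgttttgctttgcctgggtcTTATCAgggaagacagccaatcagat
Rhd, chr4:134864473-134864518, + strand: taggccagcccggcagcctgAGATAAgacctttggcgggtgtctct
Kel, chr6:41704326-41704401, - strand: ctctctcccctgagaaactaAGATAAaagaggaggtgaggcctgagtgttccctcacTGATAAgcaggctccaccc
Rhag, chr17:40811098-40811143, + strand: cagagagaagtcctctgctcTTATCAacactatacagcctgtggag
The Klf1 stretch runs from 100 to 55 bases before the start of transcription, that of Rhd from 63 to 18, that of Kel from 76 to 1 and that of Rhag from 51 to 6.

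Klf1, the erythroid factor that drives the globin and membrane genes, stood at 2.22, 1.94 and 1.85 on the unirradiated arrays and at -5.87, -5.68 and -6.27 at 500 cGy. It fell by 7.94 ± 0.294, which is 246-fold (adjusted p = 9.09e-13). The groups lie far apart, and Klf1 was still above background on every array at 500 cGy. With normexp its change was -5.60. Gata1 itself went from 4.06, 3.82 and 3.78 to 2.33, 2.17 and 1.73 and fell by only 1.81 ± 0.255. Its partner Tal1 fell by 1.62 ± 0.134 and Gfi1b, a repressor shared by red cells and megakaryocytes, by 2.21 ± 0.207. These 3 factors also act in megakaryocytes, and the part of those cells in the size of their falls was not tested. Trim10, which acts in terminal red cell maturation, fell by 5.42 ± 0.299. The log2 change of Lmo2, named here after its value was seen, was -1.40 and did not pass.

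Rhd, the Rhesus protein, stood at 2.65, 2.30 and 2.21 without irradiation and was not well above background on any array at 500 cGy, so that it was at least 411-fold lower (adjusted p = 5.32e-13). Such a bound sets the bright group's mean against the lowest signal still marked above background on the other arrays, and holds for this background correction only, since with normexp the change of Rhd was -6.09. On the same terms Btnl10, a butyrophilin-like gene, was at least 373-fold lower and Rhag, the partner of Rhd in the membrane, at least 71.8-fold. Kel, the Kell blood group protease, stayed above background on all arrays and went from 3.11, 2.89 and 2.78 to -4.90, -4.20 and -4.62, a fall of 7.50 ± 0.434 (181-fold). The skeletal protein gene Epb42 fell by 6.53 ± 0.289. Redrum, an erythroid long noncoding RNA, was at least 214-fold lower. With normexp the changes were -5.75 for Btnl10, -3.62 for Rhag, -4.89 for Redrum, -6.14 for Kel and -4.46 for Epb42. Sptb, the beta chain of spectrin, which other tissues also express, was the one member to rise, by 1.48 ± 0.241 (0.77 with normexp), and its levels of -4.11, -4.12 and -4.01 went to -2.55, -2.44 and -2.81.

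Ahsp, the chaperone of free alpha globin, carries the array file's name, without a RefSeq entry, and so was outside the rule for the 12 largest falls. Its levels of 5.81, 5.50 and 5.44 went to -3.78, -3.87 and -4.38, a fall of 9.6 ± 0.368 (774-fold, adjusted p = 1.18e-12), with a change of -8.55 with normexp. The globin RNAs themselves fell as well. Hbb-bt went from 8.66, 8.83 and 8.76 to 7.03, 6.30 and 6.07 (fall of 2.28 ± 0.317), Hbb-b2 fell by 2.73 ± 0.325 and Hba-a1 by 1.64 ± 0.227. The globin copies are nearly identical in sequence, so that each probe may read more than one of them, and Hbb-b1 was not measured. The call of Hbb-bh1 was lost without replicate 1, 2 or 3 at 0 cGy (adjusted p = 0.0909, 0.0562 and 0.0747). It was also lost without replicate 2 or 3 at 500 cGy (0.123 and 0.0828). Replicate 1 at 500 cGy was above replicates 2 and 3 for each of the 3 globins Hbb-bt, Hbb-b2 and Hba-a1.

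Alas2, the rate-limiting enzyme of erythroid heme synthesis, went from 6.10, 5.62 and 5.35 to 2.50, 1.61 and 1.41 (fall of 3.85 ± 0.406, 14.4-fold). Tfrc, the transferrin receptor that brings iron into growing cells, fell by 3.74 ± 0.178, its relative Tfr2 by 4.58 ± 0.208 and the mitochondrial iron importer Slc25a37 by 3.16 ± 0.198. With normexp the change of Tfr2 was -3.88. The amino acid transporter Slc38a5 also fell (6.86 ± 0.633, with a change of -6.12 with normexp), but it was higher at 900 than at 500 cGy, by 2.81 ± 0.633 (adjusted p = 0.0147), a comparison in which no gene passed with the replicate number as a block. Its levels were -3.49, -3.77 and -2.40 at 500 cGy and -0.66, -0.30 and -0.28 at 900 cGy, where the exocrine pancreas genes held 0.706% to 1.02% of the signal, and the part of that signal in this difference was not tested.

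**Figure D2:**
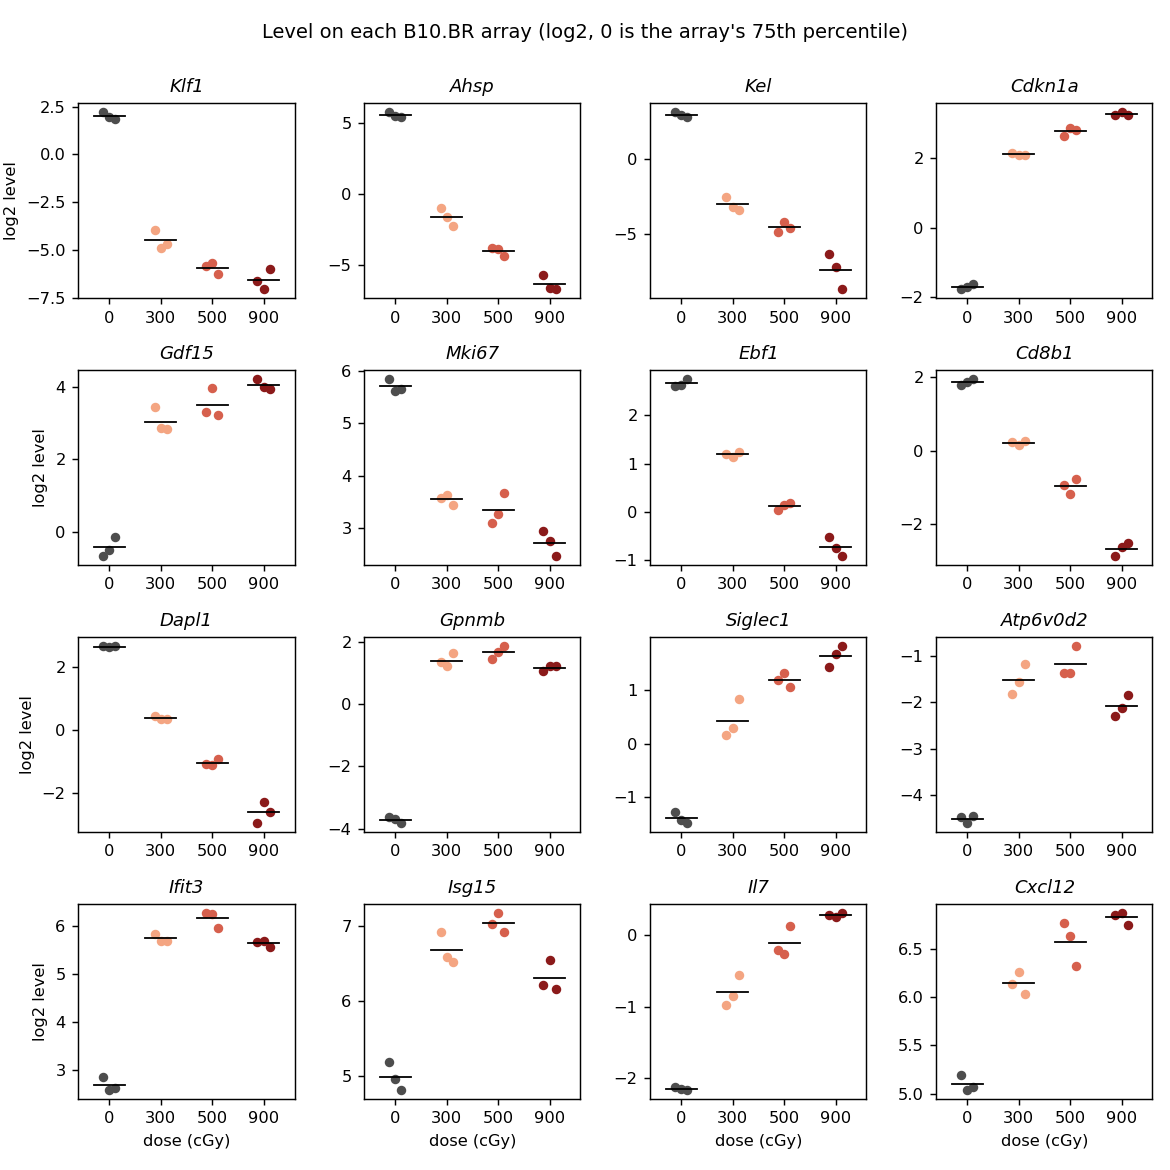
Level of 16 genes on each B10.BR array (vertical axes, log2 relative to the array's 75th percentile, with a scale of their own) at 0, 300, 500 and 900 cGy, with points for single arrays and bars for means of 3. Klf1, Ahsp and Kel drop at every irradiated dose, Ebf1, Cd8b1 and Dapl1 step down with each dose, and the means of Ifit3 and Isg15 are highest at 500 cGy.

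Of 19 genes of arrest and feedback 13 rose and 4 fell (median 1.17), and of 11 death genes 9 rose and none fell (1.04). Of 12 genes of repair and metabolism 4 rose and 2 fell (0). Of all features 22.4% rose and 26.1% fell, and the falls in the arrest and repair lists, 21.1% and 16.7%, lay below the latter share. Cdkn1a, the p21 inhibitor of cyclin-dependent kinases, stood at -1.76, -1.71 and -1.62 without irradiation and at 2.63, 2.86 and 2.81 at 500 cGy. It rose by 4.46 ± 0.1, which is 22.0-fold (adjusted p = 1.64e-15), and all its 3 probes were higher. Gdf15, a secreted stress cytokine, went from -0.65, -0.48 and -0.12 to 3.29, 3.95 and 3.22 (rise of 3.91 ± 0.212, 15-fold). Phlda3, an inhibitor of Akt at the membrane, rose by 3.10 ± 0.0935, Psrc1, a microtubule protein, by 2.89 ± 0.152 and Ccng1, cyclin G1, by 2.04 ± 0.131.

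Mdm2, the ubiquitin ligase that removes p53, went from 4.24, 4.27 and 4.48 to 4.98, 5.04 and 5.01, with no overlap between the groups. Its change of 0.68 ± 0.751 did not pass (adjusted p = 0.499) in the fit that shares one spread over all 24 arrays. In the fit of the 6 arrays alone it passed (adjusted p = 0.00228). Trp53, which encodes p53 and is controlled mainly at the protein level, fell by 0.52 ± 0.116, a fall that did not pass with spike-in scaling (adjusted p = 0.575).

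Among the death genes, Bbc3, which encodes the BH3-only killer PUMA, stood at 3.02, 3.03 and 3.05 and then at 4.93, 4.91 and 4.84 (rise of 1.86 ± 0.102, 3.63-fold, adjusted p = 8.45e-11). Bax, the pore former of the mitochondrial outer membrane, rose by 1.34 ± 0.0846, the junction protein gene Perp by 2.32 ± 0.289, the death receptor gene Tnfrsf10b by 1.56 ± 0.0998 and Fas by 0.89 ± 0.0908. In the wider Bcl2 family 8 of 15 members rose and 3 fell, against 22.4% and 26.1% of all features, and with spike-in scaling 9 rose and none fell. The antiapoptotic Bcl2 and Mcl1, which fell by 0.50 ± 0.124 and 0.52 ± 0.13, did not pass with that scaling.

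Sfn, the 14-3-3 sigma protein that holds cells in G2, went from -2.21, -2.03 and -1.96 to -3.41, -3.44 and -3.33 (fall of 1.33 ± 0.124), and Gadd45a, a stress sensor, from 3.12, 3.02 and 3.16 to 1.92, 2.01 and 1.83 (1.18 ± 0.155). Ddb2, which recognises ultraviolet damage, fell by 1.39 ± 0.115 and the sestrin gene Sesn1 by 0.88 ± 0.107. Metabolic targets that rose were led by Dcxr, a carbonyl reductase (2.10 ± 0.134), and Ak1, adenylate kinase (1.79 ± 0.134). The phosphatase gene Ppm1d fell by 0.33 ± 0.101, which did not pass with spike-in scaling (adjusted p = 0.973).

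Of 28 DNA replication genes 25 fell and none rose (median -1.03), and of 31 mitotic genes 29 fell and 1 rose (-1.51), against 26.1% falling overall. With spike-in scaling 19 and 28 fell. Mki67, the proliferation antigen, went from 5.84, 5.61 and 5.65 to 3.09, 3.26 and 3.67 (fall of 2.36 ± 0.158, 5.14-fold, adjusted p = 9.79e-10). Cyclin A2, encoded by Ccna2, fell by 2.45 ± 0.185, the survivin gene Birc5 by 2.13 ± 0.148 and the mitotic cyclin gene Ccnb1 by 1.81 ± 0.174. In the replication list Orc1 of the origin recognition complex fell by 2.41 ± 0.197 (a change of -1.73 with normexp), the ribonucleotide reductase subunit Rrm2 by 2.03 ± 0.155 and the helicase subunit Mcm2 by 1.17 ± 0.112. On replicate 3 at 500 cGy the mean level of the mitotic list, 0.24, was above the -0.14 and -0.02 of replicates 1 and 2 and below the unirradiated 1.40 to 1.60. Gtse1, a partner of p53 in G2 that is itself a p53 target, rose by 0.84 ± 0.179.

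Many mitotic promoters carry the cell cycle genes homology region, through which the DREAM complex represses them in resting or arrested cells. Its core TTTGAA was searched in the same windows and on both strands, and was found in 20.2% of all genes with a window, in 19 of 27 mitotic genes and in 5 of 24 replication genes. The stretch from 49 to 4 bases before the start of Ube2c is shown as an example, with the match in capitals.
Ube2c, chr2:164769880-164769925, + strand: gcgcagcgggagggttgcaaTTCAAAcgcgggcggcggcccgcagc
The motif was chosen with the changes known and says nothing by itself about binding. Ube2c, the ubiquitin carrier of the anaphase-promoting complex, went from 2.96, 2.77 and 2.81 to 0.68, 0.96 and 1.1 (fall of 1.93 ± 0.169).

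The G1 machinery was mixed. Of 16 G1 cyclin and E2F genes 8 fell and 2 rose, against 26.1% and 22.4% of all features. Ccne1, cyclin E1, fell by 2.09 ± 0.126 and the activator E2f2 by 2.20 ± 0.168. Ccnd1 and Ccnd2, the D cyclins that answer growth factors, rose by 0.73 ± 0.112 and 0.87 ± 0.113. With spike-in scaling 4 members fell and the same number as before rose.

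Of 18 homologous recombination genes 16 fell and none rose (median -1.1), where 26.1% of all features fell, and 12 fell with spike-in scaling. The largest falls were those of the helicase Blm (1.69 ± 0.167), Brca1 (1.49 ± 0.222) and its partner Bard1 (1.44 ± 0.135). Brca1 went from -3.89, -3.82 and -4.23 to -5.71, -5.73 and -4.97, and its change was -0.56 with normexp. Of 21 genes of break sensing and end joining 12 fell and none rose (median -0.32), and 2 fell with spike-in scaling (median -0.01). H2ax, the histone variant phosphorylated at breaks, fell by 1.33 ± 0.111, and Mdc1, which binds it, by 0.96 ± 0.0949. The kinase gene Atm fell by 0.72 ± 0.151 and did not pass with spike-in scaling (adjusted p = 0.299).

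Of 48 clustered and linker histone genes 28 fell and 11 rose (median -0.92), against 26.1% and 22.4% of all features. With spike-in scaling 23 fell and 11 rose, and with the replicate number as a block 28 fell and 9 rose. The rises of H1f10, H2bc14, H4c9 and H2ac1 did not pass without replicate 2 at 0 cGy (adjusted p = 0.0672, 0.116, 0.0889 and 0.0621) and without some other single arrays. H2ac4, a replication-dependent core histone, went from 1.09, 1.17 and 1.36 to -1.92, -1.42 and -1.85 (fall of 2.93 ± 0.194), and the linker histone H1f5 fell by 2.55 ± 0.199. H1f0, the linker histone of nondividing cells, rose by 1.57 ± 0.161, from -3.28, -3.43 and -3.66 to -1.90, -1.85 and -1.89. Histone copies resemble each other, so that probes may read more than one gene. Ribosomal protein genes fell in 73 of 80 cases with a median of -0.49, but with spike-in scaling in 5 cases with a median of -0.18.

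All 11 B cell transcription factors fell (median -1) and 21 of 22 surface genes (-1.66), against 26.1% of all features. None rose, and with spike-in scaling 8 and 20 fell. Bcl11a went from 3.90, 3.78 and 3.84 to 1.49, 1.44 and 1.49 (fall of 2.37 ± 0.0657, 5.16-fold, adjusted p = 2.47e-14). Only 1 of its 2 probes fell, and the mean over both changed by -1.12. Ebf1, which founds the B lineage, went from 2.61, 2.63 and 2.75 to 0.05, 0.14 and 0.19 (2.54 ± 0.101), and Pax5, which keeps it, fell by 2.30 ± 0.172. For both Ebf1 and Bcl11a the replicates of each group lay close together, and the groups lay far apart. Among surface genes the low-affinity IgE receptor Fcer2a of follicular B cells fell by 2.48 ± 0.174, the complement receptor Cr2 by 1.94 ± 0.102, the BAFF receptor Tnfrsf13c by 1.90 ± 0.114 and Ms4a1, which encodes CD20, by 1.66 ± 0.151. Ms4a1 stood at 6.24, 6.20 and 6.28 and then at 4.36, 4.49 and 4.89.

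Class II antigen presentation, which B cells, dendritic cells and macrophages share, fell in 10 of 12 genes (median -0.88), against 26.1% of all features. Under spike-in scaling 6 fell. H2-Ob, the B cell partner of the peptide editor, fell most (2.28 ± 0.174), from 5.21, 5.18 and 5.29 to 2.68, 2.78 and 3.37. H2-Ab1, the class II beta chain itself, fell by 0.93 ± 0.0948. The costimulator gene Cd86 rose by 0.76 ± 0.105. Class I genes and their loading proteins rose in 10 of 16 cases, against 22.4% of all features, and fell in none (median 0.37). The peptide transporter Tap1 led them (0.90 ± 0.164).

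Of 18 genes of plasma cells, the end stage of the B lineage, 11 rose and 2 fell (median 0.42), against 22.4% and 26.1% of all features. Derl3, which removes misfolded protein from the endoplasmic reticulum, went from 0.90, 1 and 0.96 to 2.16, 2.19 and 2.41 (rise of 1.30 ± 0.118). The survival receptor Tnfrsf17 rose by 0.93 ± 0.115 and syndecan-1, encoded by Sdc1, by 0.75 ± 0.115. The members that fell are also expressed in mature B cells, and the part of those cells in the falls was not tested. Tnfrsf13b fell by 1.48 ± 0.124 and Irf4 by 0.82 ± 0.145, and the fall of Irf4 did not pass with spike-in scaling.

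Of 19 genes of the T cell receptor complex and its signalling 18 fell and 1 rose (median -1.47), where 26.1% of all features fell. Under spike-in scaling 16 fell. Cd8b1 went from 1.80, 1.88 and 1.96 to -0.94, -1.18 and -0.79 (fall of 2.85 ± 0.132, 7.21-fold), and Cd8a from 2.31, 2.24 and 2.28 to 0.39, 0.38 and 0.40 (1.89 ± 0.0858). Cd3e, which all T cells carry, went from 2.88, 2.86 and 2.86 to 1.54, 1.37 and 1.64 (1.35 ± 0.104). Cd4, which macrophages and dendritic cells can express as well, stood at 2.08, 2.09 and 2.26 and then at 2.66, 2.41 and 2.38, a rise of 0.34 ± 0.1 (adjusted p = 0.00912). This rise did not pass without replicate 1 at 500 cGy (adjusted p = 0.0659) or in the fit of the 6 arrays alone (0.0516).

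Of 13 naive T cell genes 11 fell and 1 rose (median -1.51), against 26.1% and 22.4% of all features. Dapl1 went from 2.66, 2.62 and 2.67 to -1.09, -1.10 and -0.91 (fall of 3.68 ± 0.134, 12.9-fold, adjusted p = 7.01e-13). Lef1, a factor of naive T cells, fell by 2.96 ± 0.148, the chromatin organiser Satb1 by 2.04 ± 0.0912 and S1pr1, the receptor by which lymphocytes leave the tissue, by 1.88 ± 0.185. Igfbp4, which stromal cells also make, rose by 1.32 ± 0.223.

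Regulatory T cell and natural killer genes were mixed. Of 16 regulatory T cell genes 6 rose and 3 fell (median 0), and 6 rose and 1 fell with spike-in scaling, where 22.4% of all features rose and 26.1% fell without it. Il2ra, the alpha chain of the interleukin 2 receptor, rose by 0.76 ± 0.101 and the costimulator Tnfrsf4 by 1.06 ± 0.126, whereas the defining factor Foxp3, at -1.20, -1.23 and -1.22 without and -1.69, -1.63 and -1.32 with irradiation, fell by 0.33 ± 0.0955. The fall of Foxp3 did not pass with spike-in scaling (adjusted p = 0.962) or in the fit of the 6 arrays alone (0.062). Of 19 natural killer and cytotoxic genes 10 rose and 3 fell (median 0.30). Granzyme B, encoded by Gzmb, rose most, from -0.15, -0.36 and -0.37 to 1.85, 1.82 and 2.01 (2.19 ± 0.171, 4.56-fold). The activating receptors Ncr1 and Klrk1 rose by 0.80 ± 0.173 and 0.86 ± 0.128, and Klrd1 fell by 0.91 ± 0.0923.

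Macrophage genes rose together. All 20 red pulp macrophage genes rose (median 1.56), as did 20 of 23 phagocyte and lysosome genes (1.38), 10 of 13 iron recycling genes (1.23) and 5 of 7 genes of marginal zone macrophages (1.53), and none fell except Cd209a in the last list. Over all features 22.4% rose. The part of a larger share of macrophages among the remaining cells in these rises was not tested. Cd5l, a secreted scavenger protein of red pulp macrophages, went from 4.92, 4.78 and 4.91 to 7.15, 7.18 and 7.03 (rise of 2.25 ± 0.182, 4.75-fold). Siglec1 of the marginal metallophils went from -1.27, -1.43 and -1.48 to 1.20, 1.32 and 1.06 (2.59 ± 0.205, and 1.96 as the mean of its probes), and the scavenger receptor Marco rose by 1.68 ± 0.157. The complement gene C1qa rose by 1.66 ± 0.135, Cd68 by 2.20 ± 0.204 and the high-affinity IgG receptor Fcgr1 by 2.55 ± 0.119. Cd209a, which monocyte-derived dendritic cells also express, fell by 1.85 ± 0.131.

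Within the phagocyte genes a few rose far beyond the group. Gpnmb, a lysosomal glycoprotein induced in macrophages that clear debris or lipid, had the largest rise of all genes that met the rule for naming. It went from -3.63, -3.70 and -3.82 to 1.47, 1.67 and 1.88 (5.39 ± 0.344, 41.9-fold, adjusted p = 5.76e-10), with a change of 4.45 with normexp. Atp6v0d2, a macrophage subunit of the proton pump that acidifies lysosomes, went from -4.48, -4.60 and -4.44 to -1.36, -1.37 and -0.78 (3.33 ± 0.232, and 2.13 with normexp), and the lipid carrier Fabp5 rose by 2.24 ± 0.121. In iron recycling, heme oxygenase 1 (Hmox1) went from 5.79, 5.63 and 5.73 to 7.70, 7.88 and 7.39 (1.94 ± 0.186) and the iron exporter Slc40a1 rose by 1.43 ± 0.113.

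Of 20 mature neutrophil genes 12 rose and 1 fell (median 0.94), and of 11 granulocyte precursor genes 1 rose and 1 fell (0.39). Among all features 22.4% rose and 26.1% fell, and the precursor counts, 9.09% each, lay below these shares. The stefin Stfa1 went from -4.74, -4.39 and -4.47 to -1.85, -1.36 and -1.96 (rise of 2.81 ± 0.279, and 1.65 with normexp), and the gelatinase Mmp9 rose by 1.70 ± 0.153. S100a8, a calcium-binding protein abundant in neutrophils, went from 5.26, 5.07 and 5.12 to 5.82, 5.93 and 5.71 and rose by 0.67 ± 0.25 (adjusted p = 0.0326). That call was lost without replicate 2 or 3 at 0 cGy (adjusted p = 0.0849 and 0.0742) and without replicate 1 or 2 at 500 cGy (0.0687 and 0.0909). Of 20 megakaryocyte and platelet genes 17 rose and 1 fell (median 1.09). Itga2b, the platelet integrin, went from 0.33, 0.24 and 0.05 to 2.19, 2.07 and 1.49 (1.71 ± 0.433), the platelet receptor Clec1b rose by 1.43 ± 0.125 and platelet factor 4 (Pf4) by 0.71 ± 0.167.

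Of 32 interferon-induced effectors 28 rose and 1 fell (median 2.08), and of 25 sensors and regulators 15 rose and 4 fell (0.52). Among all features 22.4% rose and 26.1% fell. Interferon-stimulated genes share the interferon-stimulated response element, bound by a complex that forms after the interferon receptor is engaged. Searched on both strands as GAAA, any 2 bases and GAAA again, it was found in 3.99% of all genes with a promoter window and in 15 of the 23 effectors with one. Stretches from 3 of them are shown because they carry more than 1 match close to the start of transcription, with matches, some of which overlap, in capitals.
Ifit3, chr19:34583369-34583436, + strand: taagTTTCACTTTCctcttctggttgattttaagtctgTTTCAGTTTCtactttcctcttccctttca
Ifit1, chr19:34640765-34640833, + strand: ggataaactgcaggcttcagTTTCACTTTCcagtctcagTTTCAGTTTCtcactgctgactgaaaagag
Isg15, chr4:156200855-156200916, - strand: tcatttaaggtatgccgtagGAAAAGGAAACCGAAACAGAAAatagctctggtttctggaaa
As above, the motif was chosen with the changes known.

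Ifit3, which binds foreign RNA together with Ifit1, went from 2.86, 2.59 and 2.62 to 6.28, 6.25 and 5.97 (rise of 3.48 ± 0.188, 11.1-fold, adjusted p = 7.26e-11), and Ifit1 from 0.68, 0.37 and 0.30 to 3.48, 3.57 and 3.45 (3.05 ± 0.171). Isg15, a ubiquitin-like modifier, went from 5.19, 4.97 and 4.82 to 7.02, 7.17 and 6.91 (2.04 ± 0.181). The largest rise of the list was that of Ifi44 (4.01 ± 0.152, 16.1-fold). Oas1g, which makes the messenger that activates RNase L, was not above background on any unirradiated array and was at least 4.72-fold higher, a bound that does not hold with normexp, where its change was 0.67. Isg20, an exonuclease, was the one effector to fall (0.77 ± 0.169), and it did not pass with spike-in scaling (adjusted p = 0.219). Slfn4, a myeloid gene of the interferon-regulated Schlafen family, lay outside the list and rose by 4.96 ± 0.208 (31.2-fold), from -1.79, -2.21 and -2.54 to 2.44, 3.02 and 2.89.

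Of the regulators, Irf7, the factor that amplifies type I interferon, went from -0.02, -0.44 and -0.90 to 3.28, 3.16 and 2.74 (rise of 3.51 ± 0.236, 11.4-fold). The RNA sensors Dhx58 and Ifih1 rose by 2.15 ± 0.12 and 1.99 ± 0.139 and the nucleic acid sensor Zbp1 by 2.08 ± 0.157. Ifnb1, interferon beta itself, was not above background on any unirradiated array and above it on all 3 at 500 cGy, at least 2.25-fold higher, and its change of 0.28 with normexp did not pass (adjusted p = 0.0901). The DNA sensor Aim2 and the adaptor Sting1 fell by 0.63 ± 0.141 and 0.41 ± 0.102. Neither passed with spike-in scaling.

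Chemokines that draw monocytes rose. Of 29 chemokines and cytokines 20 rose and none fell (median 1.36), against 22.4% and 26.1% of all features. Ccl12 went from -4.56, -4.50 and -4.52 to -0.99, -0.85 and -0.03 (3.90 ± 0.346, 15-fold), Ccl8 rose by 2.72 ± 0.255, Ccl7 by 2.11 ± 0.375 and Ccl2 by 1.32 ± 0.173. With normexp the changes of Ccl12, Ccl8 and Ccl7 were 2.52, 2.05 and 1.38. Cxcl10, which interferon induces, rose by 2.03 ± 0.17. Saa3, an acute-phase protein of macrophages and stroma, rose by 4.69 ± 0.708 with a wide spread at 500 cGy, where its levels were 0.18, -1.84 and -1.21, and its change was 2.49 with normexp. The log2 changes of Tnf (-0.11), Il1b (-0.04) and Cxcl1 (-0.34) did not pass, while Il6 rose by 1.12 ± 0.192. These 3 genes were picked out after their values were seen.

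Factors that support lymphocytes and blood cell precursors rose as well. Of 17 growth factors 12 rose and 1 fell (median 0.90), against 22.4% and 26.1% of all features. Interleukin 7, made by stromal cells for lymphocytes, went from -2.12, -2.15 and -2.16 to -0.21, -0.26 and 0.13 (rise of 2.03 ± 0.113, 4.09-fold, adjusted p = 9.68e-11). Interleukin 15, needed by natural killer and memory T cells, rose by 1.72 ± 0.151, the B cell survival factor Tnfsf13b (BAFF) by 1.71 ± 0.12, Igf1 by 1.96 ± 0.112 and stem cell factor (Kitl) by 0.79 ± 0.197. The receptor of stem cell factor, Kit, fell by 0.73 ± 0.0918, which did not pass with spike-in scaling (adjusted p = 0.178).

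Genes of the tissue framework rose beside markers of tissues outside the spleen. Of 27 stromal genes 24 rose and 1 fell (median 1.33), and 20 of 21 endothelial genes rose (1.18), where 22.4% of all features rose. The chemokine Cxcl12 went from 5.19, 5.04 and 5.07 to 6.77, 6.63 and 6.32 (1.47 ± 0.112), the alarmin Il33 rose by 2.08 ± 0.0959, the collagen subunit Col6a1 by 1.79 ± 0.109 and Sox17, a factor of arterial endothelium, by 1.76 ± 0.139. The member that fell, Thy1 (1.41 ± 0.116), is also a T cell antigen. Genes of fat cells rose in 9 of 11 cases (median 1.81), of which Adipoq, Cfd and Cidec did not pass without replicate 1 at 0 cGy (adjusted p = 0.089, 0.0621 and 0.0585) and some other single arrays, with Plin4 of the lipid droplet at -0.67, -0.23 and -0.36 and then at 2.30, 1.87 and 1.67 (2.37 ± 0.569). The 11 fat cell genes held 0.0107% to 0.0136% of the summed signal without irradiation and 0.0384% to 0.0499% at 500 cGy. The stromal genes held 0.166% to 0.187% and then 0.376% to 0.403%. The part of attached fat tissue in the stromal rise was not tested. None of the 24 exocrine pancreas genes passed, with a median change of 2.78, which was 0.76 without replicate 3 at 500 cGy. The mean stromal level was 3.93, 3.80 and 3.71 on the 3 irradiated arrays.

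**Figure D3:**
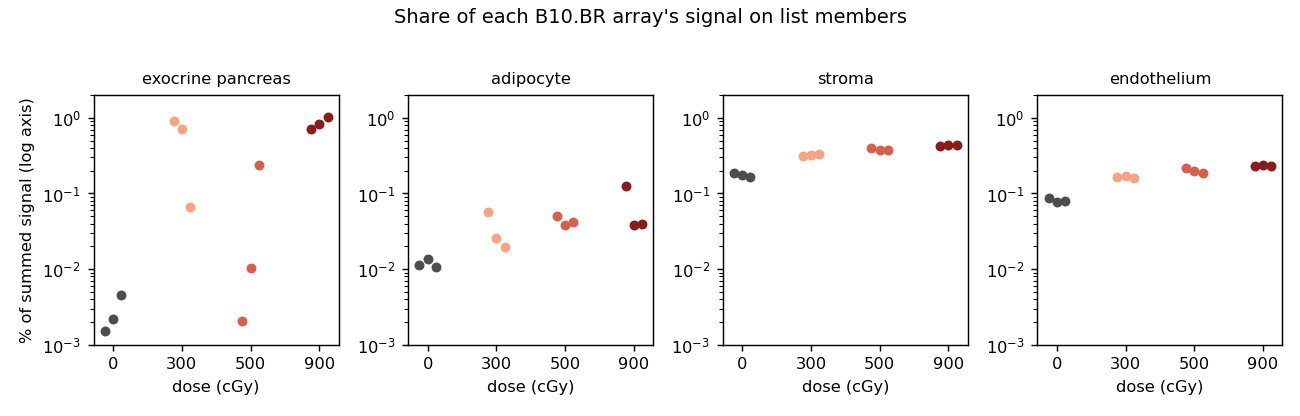
Share of each B10.BR array's summed signal (vertical axes, percent on a common log scale) on the measured genes of 4 lists at 0, 300, 500 and 900 cGy, with 1 point for each array. Exocrine pancreas genes range from 0.00206% to 0.237% within the 500 cGy group, and the stromal share of the same arrays ranges from 0.376% to 0.403%.

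The remaining genes with the largest rises come from no single list. Matn1, matrilin 1, went from -3.93, -3.98 and -4.39 to 0.64, 0.57 and 0.45 (4.65 ± 0.174, 25.1-fold), with a change of 3.44 with normexp. Ces2e, a carboxylesterase, rose by 4.10 ± 0.148 (3.30 with normexp) and Mmp3, the stromelysin that degrades matrix, by 3.92 ± 0.387. Zfp750, a zinc finger factor known from skin, was not above background on any unirradiated array and was at least 4.18-fold higher, a bound that does not hold with normexp, where its change was 0.63. Redox genes of the Nrf2 pathway rose in 10 of 18 cases and fell in 3 (median 0.44), against 22.4% and 26.1% of all features. Gpx3, a secreted peroxidase, rose by 2 ± 0.23 and the target Nqo1 fell by 0.59 ± 0.107, the latter not passing with spike-in scaling.

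Of 19 immediate early and heat shock genes 10 fell and 1 rose (median -0.76), against 26.1% and 22.4% of all features. Under spike-in scaling 4 of these genes fell and 2 rose, and within slide 6 fell and none rose. Their mean level was 0.60, 1.37 and 1.92 on the unirradiated arrays and 0.57, 0.66 and 0.89 at 500 cGy, so that unirradiated replicate 1 lay within the irradiated range, and the median was -0.90 to -0.48 with single arrays left out. Dnajb1, a heat shock cochaperone, stood at 5.12, 5.77 and 6.52 without irradiation and at 4.47, 4.29 and 4.58 with it (fall of 1.35 ± 0.249), and Egr1 at 2.50, 3.98 and 5.04 and then at 2.04, 2.32 and 2.27 (1.63 ± 0.387). Egr1 did not pass in the fit of the 6 arrays alone (adjusted p = 0.0708), and its change was -2.30 without replicate 1 and -1.03 without replicate 3 at 0 cGy.

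The doses on either side place the 500 cGy response. The comparisons of 300, 500 and 900 cGy with 0 share the unirradiated arrays, so that their medians are only set side by side. At 300, 500 and 900 cGy, the list medians were -0.87, -1.66 and -2.31 for B cell surface genes, -0.95, -1.47 and -2.15 for T cell receptor genes, -1.35, -1.51 and -2.11 for mitosis, -4.68, -5.23 and -5.89 for the red cell membrane, 1.25, 1.56 and 1.89 for red pulp macrophages and 0.65, 1.17 and 1.36 for p53 arrest genes. The interferon effectors ran 1.73, 2.08 and 1.49 and the mature neutrophil genes 1.19, 0.94 and 0.42. The plot of mean list levels shows every array.

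**Figure D4:**
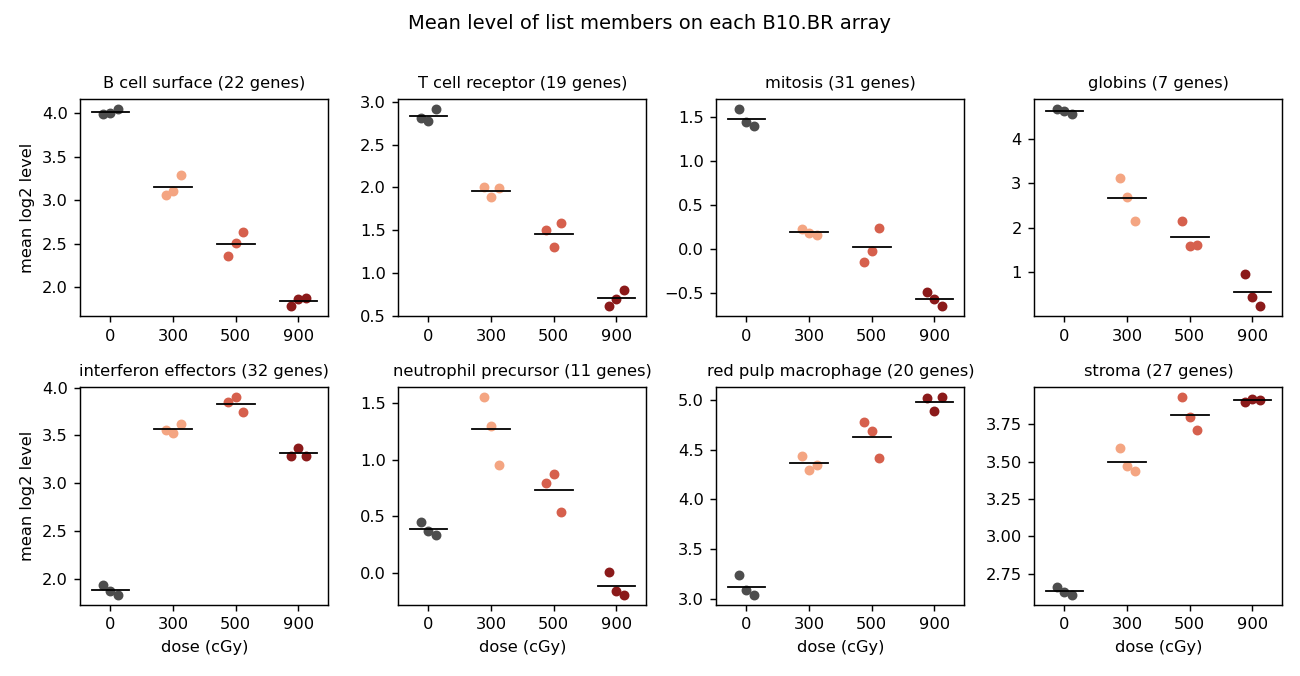
Mean log2 level of the members of 8 gene lists (vertical axes, log2 relative to the array's 75th percentile, with a scale of their own) on each B10.BR array at 0, 300, 500 and 900 cGy, with points for single arrays and bars for means of 3. B cell surface genes step from 3.06 to 3.29 at 300 cGy to 2.36 to 2.63 at 500 cGy and 1.78 to 1.88 at 900 cGy, and the interferon effectors lie at 3.74 to 3.90 at 500 cGy and at 3.28 to 3.37 at 900 cGy.

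Set directly against 300 cGy, the 500 cGy arrays differed in 570 genes (1.93% of those measured), 314 higher (1.06%) and 256 lower (0.867%). The exocrine pancreas genes held 0.896%, 0.715% and 0.0672% of the signal on the 300 cGy arrays. Their part in these differences was not tested beyond a fit with the exocrine level as a covariate, which called 262. None of the 570 passed in the fit of the 6 arrays compared alone, none with the replicate number added to that fit as a block and none between arrays of 1 slide. Fewer samples entered each of these fits. With single arrays left out the count was 224 and 230 without replicates 2 and 3 at 300 cGy, 104 and 141 without replicates 1 and 2 at 500 cGy, and 1027 without replicate 3 at 500 cGy. In the fit of all 24 arrays 15 of 22 B cell surface genes, 6 of 11 B cell factors, 9 of 19 T cell receptor genes and 6 of 13 naive T cell genes were lower at 500 than at 300 cGy, and none of them was higher. Bcl11a, with the limit on its probes given above, went from 2.35, 2.22 and 2.33 at 300 cGy to 1.49, 1.44 and 1.49 (fall of 0.83 ± 0.0657, adjusted p = 3.08e-06). Ebf1 went from 1.20, 1.13 and 1.25 to 0.05, 0.14 and 0.19 (1.07 ± 0.101), and Dapl1 from 0.43, 0.34 and 0.34 to -1.09, -1.10 and -0.91 (1.40 ± 0.134). In these 3 genes the arrays of the doses did not overlap, as in 19.6% of all features.

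Ahsp went from -0.95, -1.65 and -2.24 to -3.78, -3.87 and -4.38 (2.40 ± 0.368), Trim10 fell by 1.49 ± 0.299 and Klf1 by 1.43 ± 0.294. Celf5, an RNA-binding protein, rose by 0.93 ± 0.141, Ces2e by 0.92 ± 0.148, Il7 by 0.68 ± 0.113 and Cdkn1a by 0.65 ± 0.1, the last from 2.14, 2.09 and 2.10 to 2.63, 2.86 and 2.81. No mitotic, replication or recombination gene of the lists passed limma's test between these doses, where only 1.93% of all features did. Lists of this size would hold few calls at that share.

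Set against 900 cGy, 1411 genes differed (4.78%), 376 higher at 900 cGy (1.27%) and 1035 lower (3.50%). The replicate numbers of these 2 groups deviated together, so that the fit with the replicate number as a block bears on this comparison, and it called none. That fit used the 6 arrays compared alone, so that it had fewer samples than the fit of all arrays. All 3 arrays at 900 cGy lay on 1 slide, which they shared only with replicate 3 at 500 cGy. Dose and slide can therefore hardly be told apart here. The fit of the 6 arrays alone called 237 and slide as a block 734. Left-out arrays gave 915 and 725 without replicates 1 and 2 at 500 cGy, and 778 and 604 without replicates 1 and 3 at 900 cGy. The largest rises at 900 cGy were Reg3b, Reg2, Reg1, Tff2 and kallikrein genes, secreted products of the pancreas, on arrays where the exocrine list held 0.706% to 1.02% of the signal, and their part in other differences was not tested beyond the covariate fit, which called 495.

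The lymphocyte genes stepped down again at 900 cGy: 14 of 22 B cell surface genes, 16 of 19 T cell receptor genes and 6 of 13 naive T cell genes were lower than at 500 cGy. Among all features 3.5% were lower. Cd8a went from 0.39, 0.38 and 0.40 to -1.11, -0.86 and -0.89 (fall of 1.34 ± 0.0858, adjusted p = 8.28e-08), and Cd8b1 fell by 1.72 ± 0.132. Of the genes of dividing cells, 19 of 31 mitotic and 12 of 28 replication genes were lower at 900 cGy, Mcm2 by 0.66 ± 0.112. Granulocyte precursor genes were lower in 5 of 11 cases. Myeloperoxidase (Mpo) stood at 3.13, 3.42 and 2.83 at 500 cGy and at 1.24, 1.26 and 0.85 at 900 cGy (2.01 ± 0.42), after 4.36, 4.18 and 3.49 at 300 cGy and 2.98, 3.07 and 2.94 without irradiation.

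Interferon effectors were lower at 900 than at 500 cGy in 13 of 32 cases, against 3.5% of all features, and higher in none. Ifit1 went from 3.48, 3.57 and 3.45 to 2.50, 2.96 and 2.45 (fall of 0.87 ± 0.171, adjusted p = 0.00596), Isg15 from 7.02, 7.17 and 6.91 to 6.21, 6.55 and 6.16 (0.73 ± 0.181) and Ifi44 from 3.49, 3.67 and 3.58 to 2.94, 3.01 and 2.99 (0.60 ± 0.152). In all 3 the arrays of the doses did not overlap, as in 27.1% of all features. Ifi44 was also higher at 500 than at 300 cGy, by 0.72 ± 0.152 (adjusted p = 0.0194), whereas for Ifit1 and Isg15 the difference between 300 and 500 cGy did not pass (0.29 ± 0.171 and 0.36 ± 0.181). These differences fall under the limits given above for both comparisons between doses, in each of which the replicate block called none.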

How the data were processed

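Each array was scanned as one colour. The processed signal of a spot, per the file headers, is an intensity from Agilent Feature Extraction 10.5.1.1 with the background already subtracted. The value table that the authors deposited holds log2 values, and no source at hand names the normalization behind them. Its columns had medians of -0.021 to 0.026, its differences between arrays had a correlation of 1 and a slope of 1 with the scaled scanner values, and it was used as an alternative.

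The log2 processed signal was set relative to the array's 75th percentile. Outlier spots were left out. Of 55681 probes 42319 were kept, which passed the software's background test on every array of some group of either strain. The brightest probe stood for each gene (29532 features, 19827 with a RefSeq symbol). Names came through RefSeq by accession for 26418 probes, symbol for 3856 and synonym for 735, and 24672 kept the file's name. A mean per group was fitted over 24 arrays of both strains with limma 3.58.1 in R 4.3.3, Benjamini-Hochberg at 0.05, two-sided. The fit was tested on simulated data.

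Named genes were, by rule, the 12 largest called rises and falls without overlap among genes with a RefSeq symbol, up to 6 called members of each of 46 lists, members against their list's direction, the 10 largest steps between doses, and a fixed set. Some genes that the rule names are not reported here. Members and lists were chosen with earlier results of these data known. The correlation of residuals of same-numbered arrays was 0.076, 0.064 and -0.05 at 500 against 0, -0.0089, -0.16 and -0.095 at 500 against 300, and 0.21, 0.12 and 0.24 at 900 against 500 cGy.

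Alternatives were quantile, median and spike-in scaling (9 probes), normexp (offset 50), other filters and probe summaries, fewer arrays in the fit, an intensity trend, slide or replicate blocks, single arrays left out, an exocrine covariate, an ordinary linear model and the deposited table. Saturated spots and identical arrays were looked for and not found. The number of arrays limits the precision.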

Additional observations from a re-analysis of the deposited data

How the results depend on the processing

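The count of 14313 genes at 500 against 0 cGy stayed within 1.5 times under every alternative run, from 9647 with spike-in scaling to 14776 with the deposited table, and was 12948 to 13533 with single arrays left out. With the replicate number as a block it was 12515, of which 11517 were shared. The 500 against 300 cGy count of 570 moved to 369 with median scaling, 13 with spike-in scaling, 364 without a filter on dim probes, 0 on the arrays compared, 239 on the 12 B10.BR arrays, 1199 with slide as a block, 0 within slide, 0 with the replicate block, 262 with the exocrine covariate and 104 to 1027 with single arrays left out (4545 had an unadjusted p below 0.05 in the fit of all arrays). The 900 against 500 cGy count of 1411 moved to 64 with spike-in scaling, 237 on the arrays compared, 734 with slide as a block, 1 within slide, 0 with the replicate block (5583 had an unadjusted p below 0.05 in limma's fit of all arrays), 495 with the exocrine covariate and 604 to 1300 with single arrays left out; median scaling gave 2045, of which 9.83% were higher. Fewer samples entered the fits on the arrays compared, on the 12 B10.BR arrays, within slide and with single arrays left out. The replicate block was also fitted on the arrays compared alone, so that it too had fewer samples. Within slide, only 1 array at 500 cGy entered the comparison with 900 cGy. The cause of the other moves was not tested. Reversed values were 0.06 for Capg, 0.01 for Irf3 and 0 for Tigar with spike-in scaling, 0.02 for Csf3r with quantile normalization, the dendritic list's median of 0.01 with quantile normalization and 0.04 with spike-in scaling, and the stem cell list's median of -0.08 with normexp and -0.04 without replicate 1 at 0 cGy (up to 0.41 with another array left out).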

Other observations

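Dendritic cell genes showed no common direction at 500 cGy: of 19 members 4 rose and 9 fell, with a median of -0.27 that turned to 0.01 with quantile normalization and 0.04 with spike-in scaling. Fscn1, the actin bundler of mature dendritic cells, went from -0.42, -0.42 and -0.52 to 1.38, 1.48 and 1.29 (rise of 1.84 ± 0.162), and Ccr9, a receptor of plasmacytoid dendritic cells, fell by 1.54 ± 0.142. Of 13 stem and progenitor genes 6 rose and 5 fell (median 0.22, and -0.08 with normexp), and 6 rose and 1 fell with spike-in scaling, where 22.4% of all features rose and 26.1% fell without it. Meis1 and Procr rose by 1.27 ± 0.102 and 1.25 ± 0.0788, and Myb, a factor of dividing progenitors, fell by 1.48 ± 0.148.

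Genes of mesothelium and epithelium, which cover the splenic capsule, were gathered after their values were seen, and their counts are therefore a description. All 16 rose, where 22.4% of all features did, with a median of 1.87. Krt8, a keratin, stood at -4.78, -5.04 and -5.77 without irradiation and at -1, -2.38 and -2.30 at 500 cGy. Their share of the summed signal was 0.0267% to 0.0318% without irradiation, 0.0697% to 0.0795% at 300 cGy, 0.0853% to 0.0987% at 500 cGy and 0.0964% to 0.114% at 900 cGy. It was above every unirradiated array on all 9 irradiated arrays.

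Tsga13, a testis-specific gene by name, stood at -0.74, -0.87 and -0.79 without irradiation and at -5.45, -6.09 and -5.26 at 500 cGy, where it was above background on 2 arrays. Its change was -2.85 with normexp.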
